A study of Mus musculus with 12 samples.

Results

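The receptors for serotonin, dopamine, noradrenaline, acetylcholine and histamine were followed as 43 genes of the 23781 gene symbols in the table, chosen by name from the receptor families and not by their values. They comprised 14 serotonin, 3 dopamine, 6 alpha adrenergic, 2 beta adrenergic, 5 muscarinic, 10 nicotinic and 3 histamine receptor genes. RNA came from the dissected bilateral hippocampi of 12 male C57BL/6 mice, 3 in each of 4 groups, which were injected in the hippocampus at 10 weeks of age and killed 10 weeks later. The miR-9 experiment compared mice given AAV-GFP-miR-9sp (mice 9, 17 and 23) with mice given AAV-GFP (GFP Ctrl, mice 2, 8 and 16), and the miR-34 experiment compared AAV-GFP-miR-34sp (mice 3, 13 and 18) with its own GFP Ctrl (mice 4, 8 and 10). All 4 groups carried a pseudotyped AAV2/5 vector that expresses GFP from a human synapsin promoter, which is active in neurons, and a sponge is a transcript with 8 imperfect target sites that binds a miRNA family away from its mRNAs.

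These receptors carry the slow, modulatory signals that reach the hippocampus from the raphe nuclei, the locus coeruleus, the midbrain, the septum and the hypothalamus. Most of them act through G proteins: Gs raises cyclic AMP, Gi lowers it and Gq activates phospholipase C. The nicotinic receptors and the serotonin receptor of type 3 are ion channels that open when the transmitter binds. In the hippocampus they tune excitability, theta rhythm and plasticity, and several are carried by interneurons or glia rather than by the principal cells.

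The labels call the cells hippocampal neurons, but the tissue was whole hippocampus. Levels were computed from the counts as RPKM, which divides the reads of a gene by its transcript length and by the total of the library. Markers of granule and pyramidal cells summed to 413 to 491 RPKM over the 12 mice, and those of astrocytes to 578 to 681 RPKM. In bulk RNA of this kind, fewer cells of a type and less RNA per cell cannot be told apart. Between 17279620 and 24428477 reads were counted per mouse in the miR-9 experiment and between 11029604 and 16934133 in the miR-34 experiment. The 12 choroid plexus markers set some mice apart, with a sum of 24.1 to 1862 RPKM, and their values are given beside the gene they touch.

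A receptor gene was called detected when its read count, scaled to the mean total of the experiment, averaged more than 10 in the GFP Ctrl mice. By this limit 30 of the 43 genes were detected in the miR-9 experiment and 28 in the miR-34 experiment, with 28 in both. Adra2b and Chrnb4 passed only in the more deeply sequenced miR-9 experiment. All 5 muscarinic and both beta adrenergic genes were detected, as were 10 of 14 serotonin and 8 or 7 of 10 nicotinic genes. Of the dopamine receptor genes followed here, Drd5 passed and Drd3 and Drd4 did not, and none of the 3 histamine receptor genes passed.

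The 13 genes below the limit in both experiments were Htr1d, Htr2b, Htr3a, Htr3b, Drd3, Drd4, Adra1a, Adra1b, Chrna6, Chrnb3, Hrh1, Hrh2 and Hrh3. None of them exceeded 12 raw reads in any mouse. Htr3a, the obligatory subunit of the serotonin-gated channel and a known interneuron gene, had 0 reads in all 12 mice, and so did Chrnb3, a nicotinic subunit known from the habenula and midbrain. A count of 0 allows up to 3 reads in a mouse.

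Such a 0 cannot be read as absence for every gene, because detection went with the number of RefSeq entries per gene. Of the 35 receptor genes with 1 entry, 29 (82.9%) were detected in the miR-9 experiment, against 1 of the 8 genes with 2 or more entries (12.5%). Over all coding genes the shares were 66.3% of 15883 genes with 1 entry and 38% of 4518 genes with 2 or more. Htr3a, Chrnb3, Htr1d, Adra1a, Adra1b, Hrh1 and Hrh3 are among the 8 genes. The remaining one, Chrm1, encodes the M1 muscarinic receptor, which is known as abundant in hippocampal pyramidal cells, and it reached only 0.363 ± 0.0388 RPKM (SD, n = 3) in the GFP Ctrl mice of the miR-9 experiment. Its entry NM_001112697 had 20 to 53 reads per mouse, whereas its entry NM_007698 had 0 reads in all 12 mice. How reads shared by entries were counted is not given in the sources used here, and its part in these values was not tested.

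**Figure D1:**
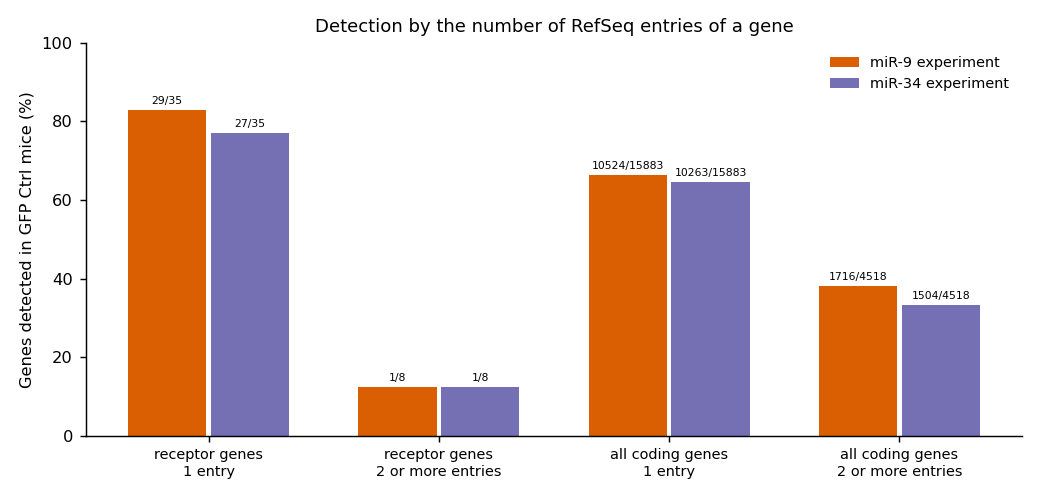
Share of genes detected in the GFP Ctrl mice (vertical axis, percent) for receptor genes and for all coding genes, split by whether a gene has 1 RefSeq entry or 2 or more, with the number detected over the number of genes above each bar. Receptor genes with 1 entry were detected in 29 of 35 cases in the miR-9 experiment, and 1 of 8 genes with more entries was.

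Among the detected genes, levels per length spanned from 0.159 RPKM (Chrnb4) to 39.9 RPKM (Adra1d) in the GFP Ctrl mice of the miR-9 experiment. Adra1d, the Gq-coupled alpha-1D adrenergic receptor, stood first in both experiments. Its level was 43.3, 38.0 and 38.5 RPKM in GFP Ctrl mice 2, 8 and 16, and 46.3, 42.6 and 49.3 RPKM in GFP Ctrl mice 4, 8 and 10. All 6 values lay above those of every other receptor gene in the same mice, and 7.73% of its exonic bases are shared with the annotated gene Gm14285.

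Chrm3, the Gq-coupled M3 receptor, led the muscarinic genes with 28.3, 28.9 and 28.7 RPKM in the GFP Ctrl mice of the miR-9 experiment and 28.2, 23.6 and 27.8 RPKM in those of the miR-34 experiment. Chrm4, a Gi-coupled receptor, came next with 16.1 ± 2.46 and 12.3 ± 1.39 RPKM (SD, n = 3). Chrm5 and Chrm2 lay at 4.15 ± 0.329 and 4.09 ± 0.479 RPKM in the miR-9 experiment, closer than their spread.

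Of the nicotinic genes, Chrnb2 and Chrna7 were the most abundant, and they encode the beta2 subunit, which pairs with alpha4, and the alpha7 subunit, which can form channels on its own. Chrnb2 was at 23.7, 23.6 and 23.5 RPKM in the GFP Ctrl mice of the miR-9 experiment and at 20.5, 19.5 and 21.1 RPKM in those of the miR-34 experiment. Chrna7 had 21.2 ± 1.22 and 22.5 ± 2.13 RPKM (SD, n = 3), so the order of the pair differed between the experiments. Chrna4, the usual partner of Chrnb2, had 14.7 ± 2.4 and 8.13 ± 1.12 RPKM.

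Among the serotonin receptor genes, Htr2c, which is Gq-coupled and a known gene of choroid plexus epithelium, ranked first with 23.25, 20.74 and 22.96 RPKM in the GFP Ctrl mice of the miR-9 experiment and 20.2, 21.7 and 18.7 RPKM in those of the miR-34 experiment. Htr1a, the Gi-coupled receptor of pyramidal and granule cells, followed with 16.6 ± 0.338 and 14.7 ± 0.953 RPKM (SD, n = 3). The other 8 detected genes of the family lay between 1.27 and 6.77 RPKM in group means. These values do not separate transcript made by neurons from transcript made by adjoining choroid plexus.

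Drd5, a Gs-coupled dopamine receptor, had 9.10, 6.89 and 6.43 RPKM in GFP Ctrl mice 2, 8 and 16 and 8.61, 8.43 and 8.41 RPKM in GFP Ctrl mice 4, 8 and 10. Of its exonic bases 49.5% overlap the annotated gene Gm16766, and of those of Htr1b 66.9% overlap D430036J16Rik. Whether the counting used strand is not given in the sources used here, so the levels of both genes are uncertain. Adrb1, the Gs-coupled beta-1 receptor, had 13.6, 15.9 and 14.2 RPKM in the first set of GFP Ctrl mice and 11.4, 11.3 and 12.5 RPKM in the second, and Adrb3 stayed below 1 RPKM in all 12 mice.

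**Figure D2:**
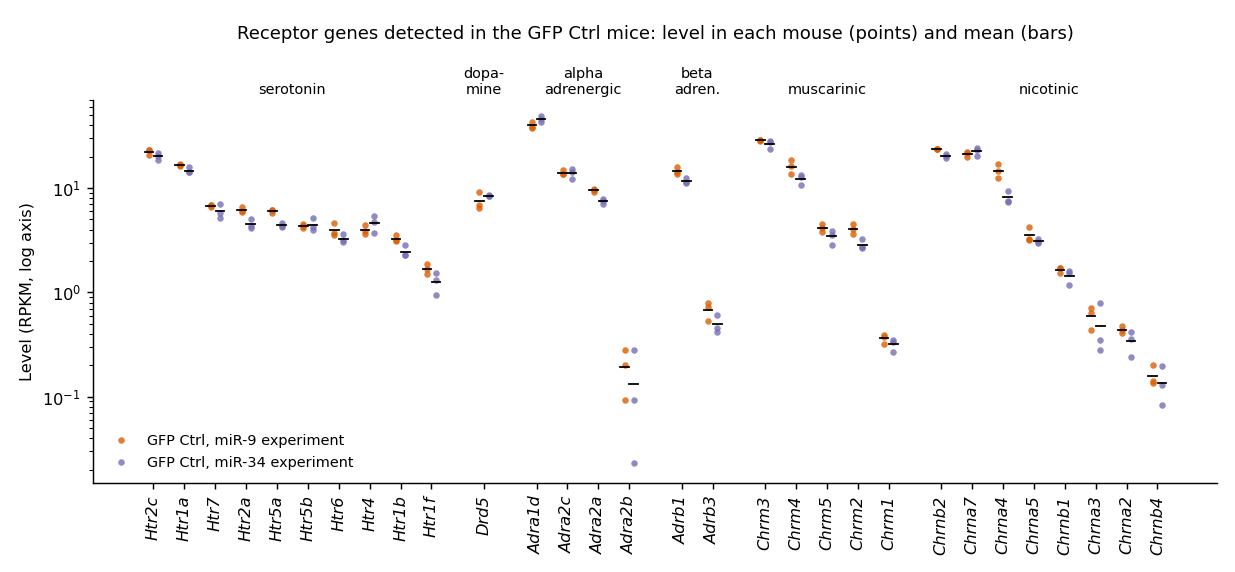
Level of the 30 detected receptor genes per transcript length (vertical axis, RPKM, log axis) in each GFP Ctrl mouse of the miR-9 and the miR-34 experiment (points) with group means (short bars), by receptor family. Adra1d lies highest in both sets of mice, and Adra2b and Chrnb4 lie lowest.

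Several members are known from tissue or cells beside the principal neurons. Htr5b and Chrna3 are known habenular genes, and Chrna2 marks a class of hippocampal interneurons. Normalised read counts (scaled with TMM factors to the mean library of the experiment) of Htr5b were 173, 180 and 167 in GFP Ctrl against 188, 172 and 177 after miR-9sp, and 136, 104 and 110 against 125, 119 and 108 after miR-34sp. The groups overlapped in both experiments. Chrna3 had 40.1, 44.2 and 27.1 against 23.3, 27.6 and 43.1 in the miR-9 experiment, and 32.0, 14.4 and 11.5 against 22.3, 21.7 and 13.5 in the miR-34 experiment, again with overlap. Of the thalamus and habenula markers, Gpr151 lay between 0.468 and 0.942 RPKM in all mice, Pou4f1 reached at most 0.123 RPKM, and Tac2 was at 0 in 11 of 12 mice. Tcf7l2, Ntng1, Lef1 and Rora reached at most 0.422 RPKM. Others of the list were higher, with Nwd2 between 9.43 and 10.9 RPKM, Slc17a6 between 4.78 and 15.4 RPKM and Prkcd between 7.72 and 20.5 RPKM. Because detection went with the number of RefSeq entries per gene, the low marker values cannot be read as absence of the tissue. The number of entries of these markers is not given here. Chrna2 had 33.5, 30.5 and 28.7 against 28.5, 32.8 and 27.5, and 16.6, 11.1 and 19.2 against 13.6, 17.04 and 14.6, and Chrnb4, the partner of Chrna3, had 13.98, 9.48 and 9.85 against 11.6, 9.21 and 4.79, and 5.93, 8.88 and 3.84 against 8.71, 2.32 and 3.38. These low counts overlapped between sponge and GFP Ctrl mice throughout.

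A miRNA recognises mRNAs mainly through pairing of its seed with the 3′ UTR, so the mature miRNAs and the matches in receptor 3′ UTRs are shown before the comparisons. The miRNA sequences are RefSeq records on GRCm38.p6, with the seed (bases 2 to 8) in capitals. miR-34a and miR-34b share their seed and differ outside it.
mmu-miR-9-5p: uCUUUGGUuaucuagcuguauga
mmu-miR-34a-5p: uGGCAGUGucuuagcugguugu
mmu-miR-34b-5p: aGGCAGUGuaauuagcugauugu

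An 8mer of miR-9 (ACCAAAGA, the complement of the seed followed by A, searched on the transcript strand) was found in the longest annotated 3′ UTR of 1 of the 43 receptor genes, Htr1a, against 3.76% of 19856 genes. An 8mer of miR-34 (CACTGCCA) was found in 3, Htr2c, Chrna6 and Hrh2, against 4.91% of genes, and of these Htr2c alone was detected. The 3′ UTRs of the receptor genes had a median length of 1255 bases, against 897 over all genes. Coordinates are on mm9, all sites lie within the 3′ UTR, and the match is in capitals.
Htr1a, miR-9 8mer, chr13:106236407-106236414, + strand: cagcactcACCAAAGAaattgaca
Htr2c, miR-34 8mer, chrX:143630898-143630905, + strand: gtttacaaCACTGCCAaatgtcac
Chrm2, miR-9 match to the seed complement alone, chr6:36475512-36475518, + strand: cttgggaaACCAAAGtcatttaaa
Matches to the seed complement alone (ACCAAAG or CACTGCC, which the 8mers contain) were held by 4 receptor genes for miR-9 (Htr1a, Chrm2, Chrna2, Chrna7), against 11.4% of all genes, and by 8 for miR-34 (Htr2c, Htr3b, Adra2b, Chrna6, Chrna7, Chrnb2, Chrnb3, Hrh2), against 14% of all genes. A match is a description of the sequence and not a measured site.

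After miR-9sp injection, receptor genes changed by small amounts in both directions. Of the 43 genes, 28 had a mean scaled count above 10 over the 6 mice and were tested among 13045 genes. None had an adjusted p under 0.05 in edgeR's quasi-likelihood test with Benjamini-Hochberg adjustment, where 0% of all genes tested did, and DESeq2 called 0 receptor genes too. At an unadjusted p under 0.05 Htr1a was higher and Chrm2 lower, 2 of 28 genes (7.14%), where 4.73% of all genes tested passed (2.47% higher and 2.26% lower). The median log2 fold change of the 28 genes was -0.03, against 0.00 over all genes tested (-0.0006), and 13 of 28 lay above 0 against 49.7% of all genes. The changes ranged from -0.30 (Chrm2) to 0.19 (Drd5). Without regard to sign their median was 0.078, against 0.059 over all genes tested, with a median SE of 0.10 against 0.08.

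Htr1a, the autoreceptor and postsynaptic receptor that opens potassium channels through Gi, had 1557, 1641 and 1606 normalised reads in miR-9sp mice 9, 17 and 23 and 1508, 1449 and 1483 in GFP Ctrl mice 2, 8 and 16. All 3 sponge mice lay above all 3 GFP Ctrl mice. The log2 fold change was 0.11 (SE 0.04, unadjusted p = 0.0192, adjusted p = 0.97, edgeR). Htr1a is the receptor gene that holds a miR-9 8mer in its 3′ UTR, shown above. Markers of granule and pyramidal cells, which carry Htr1a, moved the same way: 8 of 8 lay above 0 with a median log2 fold change of 0.10, none at an unadjusted p under 0.05, and their sums of 413 to 473 RPKM in GFP Ctrl and 436 to 491 RPKM after miR-9sp overlapped. The part of these cells and of the 8mer in the change of Htr1a was not tested. Across 14 alternatives its unadjusted p lay between 0.0156 and 0.0756, and it passed the limit no longer without GFP Ctrl mouse 8 or miR-9sp mouse 17, with log2 fold changes of 0.10 in both cases, nor with scaling to total counts, DESeq2 or the study's criterion. In the miR-34 experiment, Htr1a had 847, 952 and 862 normalised reads after miR-34sp and 916, 820 and 822 in GFP Ctrl, with overlap (log2 fold change 0.06, SE 0.06, unadjusted p = 0.349, edgeR).

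Chrm2, the Gi-coupled M2 receptor that acts as an autoreceptor on cholinergic terminals and sits on interneurons, had 142, 114 and 151 normalised reads after miR-9sp and 147, 186 and 167 in GFP Ctrl. The groups overlapped, since sponge mouse 23 lay above GFP Ctrl mouse 2. The log2 fold change was -0.30 (SE 0.13, unadjusted p = 0.047, adjusted p = 0.97, edgeR), and over 14 alternatives the unadjusted p lay between 0.0235 and 0.189. It did not pass without GFP Ctrl mouse 8 (-0.22) or 16 (-0.30), without miR-9sp mouse 9 (-0.34) or 17 (-0.19), with DESeq2 or with the study's criterion. Of the Gi-coupled M4 receptor gene Chrm4, 763, 861 and 652 normalised reads stood against 747, 1019 and 910, with a log2 fold change of -0.23 (SE 0.12, unadjusted p = 0.0811, edgeR). Chrm4 passed the unadjusted limit with DESeq2 (-0.23, unadjusted p = 0.0399), where it was the 1 receptor gene called lower and Chrm2 was not, and in edgeR with every gene of at least 1 count (unadjusted p = 0.026).

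Groups that did not overlap were found for 2 of 28 receptor genes, Htr1a (higher) and Chrnb2 (lower), where 10.2% of all genes tested did not overlap (5.21% higher and 5.02% lower). Chrnb2 had 2495, 2351 and 2454 normalised reads after miR-9sp and 2555, 2544 and 2538 in GFP Ctrl. The GFP Ctrl mice were close to each other, and the log2 fold change was -0.07 (SE 0.04, unadjusted p = 0.104, edgeR).

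Adra2b, a Gi-coupled alpha-2 receptor, lay below the limit for testing but had groups that did not overlap. Its raw counts were 3, 2 and 4 reads in miR-9sp mice 9, 17 and 23, against 17, 21 and 9 reads in GFP Ctrl mice 2, 8 and 16. After normalisation these were 3.17, 2.05 and 4.79 against 15.8, 22.1 and 7.39, so every sponge mouse was lower, at counts near the floor of 3 reads. When the limit was set on the GFP Ctrl mice alone, the log2 fold change was -2.12 (SE 0.54, unadjusted p = 0.00282, adjusted p = 0.968, edgeR). That limit admits a gene through the group in which it is high. In the miR-34 experiment Adra2b had 3, 2 and 2 raw reads after miR-34sp and 1, 13 and 5 in GFP Ctrl, with overlap. When every gene of at least 1 count was tested, Adra2b was lower at an unadjusted p under 0.05 in both experiments (edgeR). After miR-9sp the unadjusted p was 0.000653 (adjusted p = 0.628, edgeR), again at these low counts. After miR-34sp the call came with groups that overlap and is no repeat of the separation seen after miR-9sp. There GFP Ctrl mouse 4 had 1 raw read, fewer than any sponge mouse, and GFP Ctrl mouse 8 had 13.

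After miR-34sp injection, the median log2 fold change of the 28 receptor genes tested was -0.01, against 0.00 over all 12492 genes tested (-0.0007). None had an adjusted p under 0.05 in edgeR, where 0.064% of genes tested passed, all of them lower, and DESeq2 called 1 receptor gene, Htr2c. At an unadjusted p under 0.05 Adrb1 was higher and Htr2c lower, 2 of 28 genes (7.14%) against 6.43% of all genes tested (2.71% higher and 3.72% lower). The same pair, again 2 of 28, had groups that did not overlap, against 11.6% of all genes tested (5.8% higher and 5.76% lower). The changes ranged from -0.33 (Htr2c) to 0.18 (Adrb1), with 14 of 28 genes above 0 against 49.7% of all genes tested.

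Htr2c, whose receptor activates phospholipase C and is edited at the RNA level, had 897, 1031 and 1073 normalised reads in miR-34sp mice 3, 13 and 18 and 1256, 1347 and 1165 in GFP Ctrl mice 4, 8 and 10. All 3 sponge mice lay below all 3 GFP Ctrl mice. The log2 fold change was -0.33 (SE 0.07, unadjusted p = 0.000707, adjusted p = 0.243, edgeR). The adjusted p was 0.0192 in DESeq2 and 0.00212 in edgeR with every gene of at least 1 count, and it ranged from 0.00212 to 0.782 over 14 alternatives, in all of which the unadjusted p was under 0.05. Without any 1 mouse, the log2 fold change lay between -0.38 and -0.26. Htr2c is also the detected receptor gene whose 3′ UTR holds the miR-34 8mer shown above. The paper reports overall higher levels of probable targets after miR-9sp, with a similar trend short of significance after miR-34sp. Htr2c was lower, and the part of the 8mer in its change was not tested.

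The markers of choroid plexus moved with Htr2c. The 12 markers summed to 1549, 1862 and 496 RPKM in GFP Ctrl mice 4, 8 and 10 and to 88.7, 98.7 and 34.2 RPKM in miR-34sp mice 3, 13 and 18. All 10 of the markers tested were lower after miR-34sp, each at an unadjusted p under 0.05 and 4 at an adjusted p under 0.05 (edgeR), with a median log2 fold change of -3.62. Ttr, the transthyretin gene and the most abundant of them, lay between 472 and 1782 RPKM in GFP Ctrl and between 22.6 and 83.9 RPKM after miR-34sp. Folr1 was at 0 in all 12 mice and Otx2 at 0 in 8 of them, which cannot be read as absence because detection went with the number of RefSeq entries per gene. Of the 6 striatal markers 3 were also lower at an unadjusted p under 0.05, with sums of 36.3 to 59.7 RPKM in GFP Ctrl and 33.4 to 34.1 RPKM after miR-34sp. The part of either tissue in the change of Htr2c was not tested, and in this experiment the choroid plexus sum and the sponge cannot be told apart, because the lowest GFP Ctrl sum was above the highest sponge sum.

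In the miR-9 experiment the choroid plexus sum did not separate the groups, and Htr2c ordered the mice nearly as the sum did. The sums were 566, 79.4 and 211 RPKM in GFP Ctrl mice 2, 8 and 16 and 24.1, 668 and 30.3 RPKM in miR-9sp mice 9, 17 and 23. Normalised reads of Htr2c were 2208, 1971 and 2187 in the GFP Ctrl mice and 1824, 2253 and 1859 in the sponge mice. Ordered by the sum or by normalised reads of Htr2c, the 6 mice came out in the same order, 17, 2, 16, 8, 23 and 9. In RPKM, the scale of the sum, Htr2c was almost level in the last pair. There mouse 9 (18.95 RPKM) lay just above mouse 23 (18.93 RPKM). In the miR-34 experiment the 3 GFP Ctrl mice also had the same order by both (8, 4, 10), whereas the sponge mice did not. The log2 fold change of Htr2c after miR-9sp was -0.10 (SE 0.08, unadjusted p = 0.226, edgeR), and without miR-9sp mouse 17, which had the highest sum, it was -0.20 (SE 0.06, unadjusted p = 0.00646). How many other genes order the mice in the same way is not given here. The part of choroid plexus in these values of Htr2c was not tested.

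**Figure D3:**
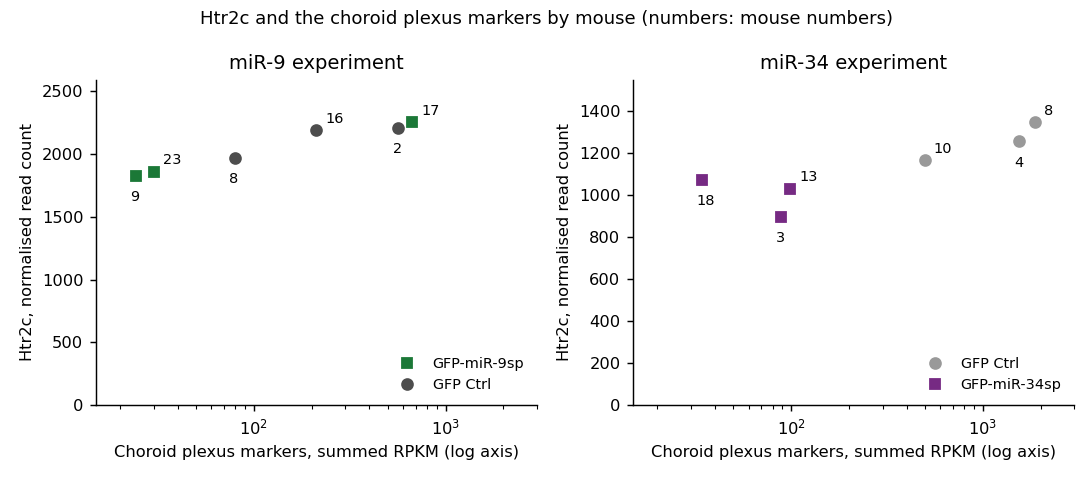
Normalised read count of Htr2c (vertical axis) against the summed level of 12 choroid plexus markers (horizontal axis, RPKM, log axis) in each mouse of both experiments, with mouse numbers. In the miR-9 experiment the 6 mice take the same order on both axes across the groups, but with Htr2c in RPKM mice 9 and 23 change places. In the miR-34 experiment the GFP Ctrl mice lie at 496 to 1862 RPKM and the sponge mice at 34.2 to 98.7 RPKM.

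Adrb1, the beta-1 receptor through which noradrenaline raises cyclic AMP, had 433, 410 and 457 normalised reads after miR-34sp and 371, 366 and 407 in GFP Ctrl. The sponge mice lay above the GFP Ctrl mice, but mouse 13 and GFP Ctrl mouse 10 were almost level. The log2 fold change was 0.18 (SE 0.07, unadjusted p = 0.0288, adjusted p = 0.714, edgeR), and over 14 alternatives the unadjusted p lay between 0.0137 and 0.101. It did not pass without GFP Ctrl mouse 4 (0.16) or 8 (0.15), without miR-34sp mouse 3 (0.18) or 18 (0.14), with DESeq2, with 1 model of all mice or with the study's criterion. No match to the miR-34 seed was found in the Adrb1 3′ UTR. After miR-9sp, Adrb1 had 759, 696 and 598 normalised reads against 677, 791 and 708, with overlap (log2 fold change -0.08, SE 0.09, unadjusted p = 0.391, edgeR).

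Drd3 also had groups that did not overlap in the miR-34 experiment, but only after normalisation (0, 0.775 and 0 after miR-34sp against 1.19, 4.44 and 0.959 in GFP Ctrl). Its raw reads were 0, 1 and 0 against 1, 4 and 1, so a count of 1 occurred in both groups. These reads are too few for a fold change. The 3′ UTRs of Chrna7 and Chrnb2 match the miR-34 seed complement. Their log2 fold changes after miR-34sp were 0.00 (0.0033, SE 0.07) and 0.02 (SE 0.04), and neither passed the test.

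**Figure D4:**
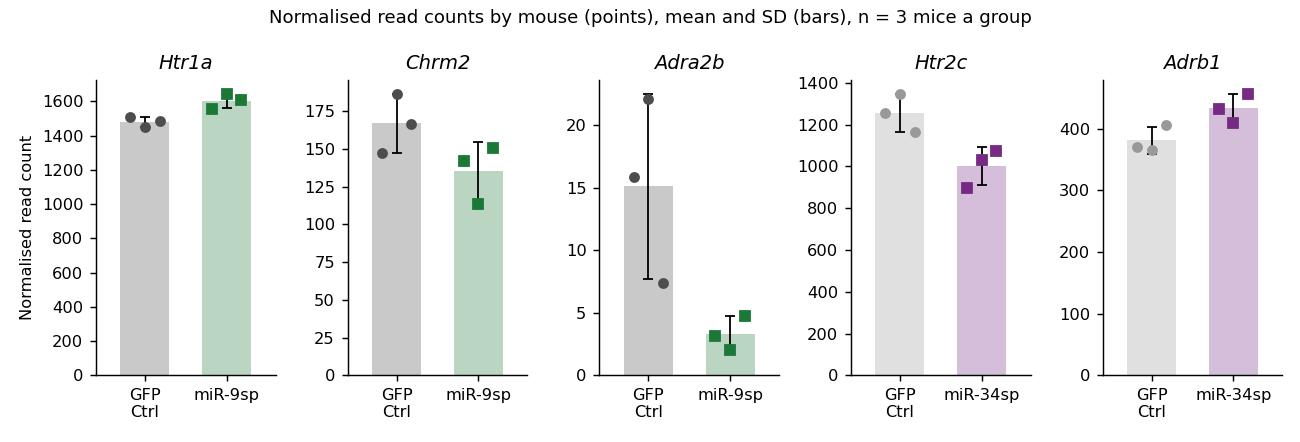
Normalised read counts (vertical axes, each starting at 0) of Htr1a, Chrm2 and Adra2b in the miR-9 experiment and of Htr2c and Adrb1 in the miR-34 experiment, for each mouse (points) with the group mean and SD (bars, n = 3). The groups do not overlap for Htr1a, Adra2b, Htr2c and Adrb1, and they overlap for Chrm2.

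By family, the medians lay between -0.12 and 0.19 in the miR-9 experiment and between -0.09 and 0.05 in the miR-34 experiment. The 10 serotonin receptor genes had a median log2 fold change of 0.04 in the miR-9 experiment and -0.01 in the miR-34 experiment, the 5 muscarinic genes -0.05 and -0.09, and the 7 nicotinic genes -0.07 and 0.05. The 3 alpha adrenergic genes tested had 0.02 and -0.06, the 2 beta adrenergic genes -0.12 and -0.01, and Drd5 had 0.19 (SE 0.13) and 0.02 (SE 0.08). Without GFP Ctrl mouse 2 the value of Drd5 in the miR-9 experiment was 0.36 (SE 0.10, unadjusted p = 0.00592, edgeR). None of these families had more than 1 gene at an unadjusted p under 0.05 in either experiment. The SE of single genes ran from 0.04 (Chrnb2) to 0.37 (Chrna3 in the miR-34 experiment), so changes of low genes such as Chrna3 were not detectable unless large.

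**Figure D5:**
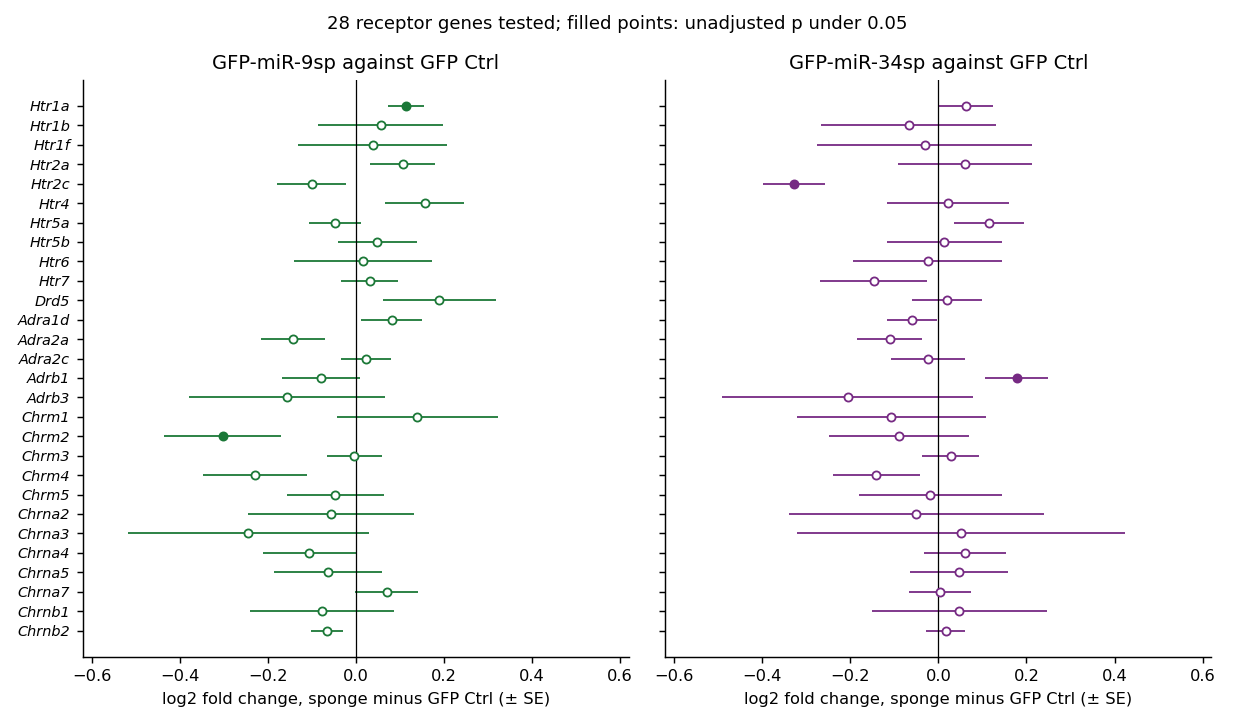
Log2 fold change ± SE (horizontal axis) of the 28 receptor genes tested (vertical axis) in the miR-9sp mice and in the miR-34sp mice, each against the GFP Ctrl mice of its own experiment. Filled points have an unadjusted p under 0.05, which are Htr1a and Chrm2 after miR-9sp and Htr2c and Adrb1 after miR-34sp.

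Whether the sponges differed in their effect was asked with an interaction term over the 12 mice. None of the 28 receptor genes passed an adjusted or an unadjusted p of 0.05 in edgeR, where 0% and 6.1% of 12835 genes did (2.55% higher and 3.55% lower unadjusted), and DESeq2 called 0 by adjusted p. Adrb1 (difference 0.25, SE 0.12, unadjusted p = 0.0571) and Htr2c (difference -0.23, SE 0.12, unadjusted p = 0.0717, both edgeR, miR-34sp effect minus miR-9sp effect) came nearest. For neither gene was a difference between the sponges shown, although each passed the unadjusted limit after miR-34sp alone. Adrb1 passed the unadjusted limit without GFP Ctrl mouse 2, miR-9sp mouse 9, GFP Ctrl mouse 10 or miR-34sp mouse 13 (0.30 to 0.34), and Htr2c did without miR-9sp mouse 9 or 23, GFP Ctrl mouse 10 or miR-34sp mouse 18 (-0.28 to -0.27). Drd5 passed without GFP Ctrl mouse 2 alone (-0.34).

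Mice given the same GFP vector in the 2 experiments were compared to see how far these genes vary between sets of mice. Of 29 receptor genes tested, 8 (27.6%) had an adjusted p under 0.05 in edgeR, where 25.2% of 12878 genes did (13.5% higher and 11.7% lower), and 7 of the 8 were lower in the miR-34 experiment. At an unadjusted p under 0.05, 11 of 29 passed (37.9%), against 36.9% of all genes (18.7% higher and 18.2% lower). Chrna4 had 583, 722 and 565 normalised reads in its GFP Ctrl mice against 915, 1273 and 1070 in those of the miR-9 experiment (log2 fold change -0.80, SE 0.12, adjusted p = 0.000992). The other 6 that were lower were Htr2a, Htr5a, Adra2a, Adrb1, Chrm2 and Chrnb2, and Adra1d was higher. In all, 23 of 29 lay below 0, and 6 of 29 (20.7%) above it, against 49.1% of all genes tested. Without GFP Ctrl mouse 8 or 16 of the miR-9 experiment, 5 receptor genes had an adjusted p under 0.05. Markers of tissue and cells moved in the same comparison, and all 10 choroid plexus markers tested were higher in the miR-34 experiment (8 by adjusted p). Of the thalamus and habenula markers, 4 of 5 lay below 0 (median -0.33, 1 by adjusted p), and 2 of 6 interneuron markers were lower by adjusted p. Granule and pyramidal cell markers lay above 0 in 6 of 8 cases (median 0.13, 3 by adjusted p in either direction). Astrocyte markers did so in 4 of 5 (2 by adjusted p). By adjusted p, 2 of 5 microglia and 1 of 4 oligodendrocyte markers also passed, and 0 striatal or endothelial ones. The part of these tissues and cells in the receptor values was not tested. Mice, experiment and library preparation cannot be told apart here, and only the headers of the miR-9 experiment carry the word totRNA.

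Of 63 other genes of these pathways, 40 were tested in the miR-9 experiment and 37 in the miR-34 experiment, and 0 had an adjusted p under 0.05 in edgeR. With every gene of at least 1 count, edgeR gave adjusted p = 0.000178 for Rgs14 and adjusted p = 0.0209 for Lynx1 after miR-34sp. In DESeq2 0 passed after miR-9sp and 1, Rgs14, after miR-34sp. Of the enzymes and transporters of the neurons that make these transmitters, some had few reads and others did not. Chat, which makes acetylcholine, had 0 to 5 raw reads per mouse, Slc6a4, the serotonin transporter, 0 to 4, Th, which makes catecholamines, 5 to 31, and Tph2, which makes serotonin in neurons, 16 to 44. Hdc, which makes histamine, had 30 to 66, and Slc18a2, the vesicular monoamine transporter, had 103 to 276. At an unadjusted p under 0.05 in edgeR, 3 genes were higher after miR-9sp (Adcy1, Rgs14 and Lynx1) and 2 lower (Slc22a3 and Plcb4), 5 of 40 (12.5%) against the 4.73% of all genes tested. After miR-34sp 0 were higher and 3 of 37 lower (Adcy5, Rgs14 and Lynx1), against 6.43% of all genes tested in either direction (2.71% higher and 3.72% lower).

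Adcy1, a calcium-stimulated adenylyl cyclase, changed by 0.25 (SE 0.08, unadjusted p = 0.00821, edgeR) on the log2 scale after miR-9sp, and Adcy5, another adenylyl cyclase, by -0.16 (SE 0.05, unadjusted p = 0.00481) after miR-34sp. Without miR-9sp mouse 23 the value of Adcy1 was 0.15 (unadjusted p = 0.009), and Adcy1 did not pass the study's criterion. Slc22a3, a low-affinity monoamine transporter, changed by -0.57 (SE 0.22, unadjusted p = 0.0297) after miR-9sp, and Plcb4, a phospholipase C that Gq activates, by -0.25 (SE 0.10, unadjusted p = 0.0365). Neither passed the study's criterion. Slc22a3 did not pass with DESeq2, nor without GFP Ctrl mouse 8 (-0.41) or 16 (-0.60) or miR-9sp mouse 9 (-0.46) or 23 (-0.54). Plcb4 did not pass without GFP Ctrl mouse 8, where it was -0.10, or without miR-9sp mouse 9, 17 or 23 (-0.26 to -0.24). Rgs14, which speeds the switching off of Gi proteins and is known from area CA2, changed by 0.26 (SE 0.07, unadjusted p = 0.00488, adjusted p = 0.97) after miR-9sp and by -0.34 (SE 0.06, unadjusted p = 0.000121, adjusted p = 0.0995) after miR-34sp. Lynx1, which binds and restrains nicotinic receptors, changed by 0.15 (SE 0.04, unadjusted p = 0.0051, adjusted p = 0.97) and by -0.19 (SE 0.05, unadjusted p = 0.00187, adjusted p = 0.383). Without miR-9sp mouse 23 the value of Rgs14 after miR-9sp was 0.17, and neither Rgs14 after miR-9sp nor Adcy5 and Lynx1 passed the study's criterion. For Rgs14 and Lynx1 the sponge and GFP Ctrl mice did not overlap in each experiment, and they were higher in the first and lower in the second. In the miR-34 experiment, in which Adcy5, Rgs14 and Lynx1 were lower, the 10 choroid plexus markers tested were lower too (median log2 fold change -3.62), as were 3 of 6 striatal markers at an unadjusted p under 0.05 (median of the 6 -0.38). The part of these tissues in the 3 changes was not tested. In the miR-9 experiment, in which Adcy1, Rgs14 and Lynx1 were higher, 8 of 8 granule and pyramidal cell markers lay above 0 (median log2 fold change 0.10). None of these markers had an unadjusted p under 0.05 in edgeR, and the part of these cells in the changes was not tested.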

How the data were processed

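The authors mapped trimmed 50 bp single end reads and quantified them to RefSeq. The methods name mm9, whereas the labels' processing notes name STAR and mm10. The counting tool is not given in the sources used here. The deposited values are raw counts per RefSeq entry, beside another value deposited by the authors, the entry length in bases. GFP Ctrl mice whose labels name no experiment were assigned to the miR-9 experiment.

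Of 32850 entries, 98.7% were matched to a symbol through RefSeq on GRCm38.p6, and counts were summed per symbol. The remaining entries, with 1.29% of counts, were tested as they were. Genes with a mean scaled count above 10 over the mice compared were tested with edgeR 4.0.16 (R 4.3.3), TMM and Benjamini-Hochberg adjustment, with a two-sided quasi-likelihood test. Alternatives were DESeq2 1.42.0, other scaling and limits, 1 entry per gene, 1 model of all mice, the study's criterion (ratio above 1.2 or below 0.833) and leaving out each mouse. A count floor of 3 reads covers counting error only. RPKM used the deposited lengths. Seed matches and exon overlaps came from GENCODE M1 on mm9. The fits were tested on simulated data.

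Genes named were those with an unadjusted p under 0.05, groups that did not overlap with a ratio beyond 1.2, the highest level of a family, or a known neighbouring source. Chrm4, Chrna4, Chrna7 and others outside this rule were chosen after their values were seen. The members and lists were chosen with earlier results of these data known. Samples of a group carry separate numbers in the labels, taken here as mouse numbers, and p-values measure the spread between these samples. Python 3.11.15, pandas 2.3.3 and matplotlib 3.10.9 were used.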

Additional observations from a re-analysis of the deposited data

Results flagged for a closer look

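Rgs14 and Lynx1 moved in opposite directions in the 2 experiments, with all 3 sponge mice above GFP Ctrl in the miR-9 experiment and all 3 below it in the miR-34 experiment. The difference between the sponge effects on the log2 scale (miR-34sp minus miR-9sp) was -0.60 for Rgs14 (SE 0.10, unadjusted p = 3.23e-05, adjusted p = 0.415, edgeR) and -0.34 for Lynx1 (SE 0.07, unadjusted p = 0.000122, adjusted p = 0.569, edgeR), and DESeq2 gave adjusted p values of 0.00158 and 0.0174. On a scale common to the 12 mice, Rgs14 had 1728, 1843 and 2116 normalised reads in the miR-9sp mice against 1668, 1580 and 1509 in their GFP Ctrl mice, and 1617, 1611 and 1798 in the miR-34sp mice against 2239, 1951 and 2177. Lynx1 had 9976, 10286 and 10689 against 9488, 9372 and 9012, and 8258, 9289 and 9380 against 10382, 10006 and 10400. The GFP Ctrl mice themselves differed, with log2 fold changes of 0.40 for Rgs14 (adjusted p = 0.000558, edgeR) and 0.13 for Lynx1 (adjusted p = 0.0242), higher in the miR-34 experiment. These comparisons share the GFP Ctrl mice, and the part of the GFP Ctrl difference in the opposite directions was not tested.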

How the results depend on the processing

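No paired analysis was possible because the groups compared share fewer than 2 replicate numbers. The count of receptor genes with an adjusted p under 0.05 after miR-34sp was 1 (Htr2c) with DESeq2 and 1 with every gene of at least 1 count, and otherwise 0 wherever it was computed, as it was after miR-9sp. At an unadjusted p under 0.05, after miR-9sp, 0 genes were higher with scaling to total counts, with DESeq2 and with the study's criterion, and 2 (total scaling), 3 (every gene), 2 (limit on GFP Ctrl) and 0 (the study's criterion) were lower. After miR-34sp, 0 were higher with DESeq2, with 1 model of all mice and with the study's criterion, and 2 were lower with every gene. Between the sponges, 1 differed upward with total scaling. Leaving out each mouse in turn gave 0 to 3 higher and 0 to 4 lower after miR-9sp, 0 to 1 higher and 1 to 2 lower after miR-34sp, 0 to 1 in each direction between the sponges, and 5 to 10 adjusted calls and 1 to 3 higher at an unadjusted p between the GFP Ctrl sets. Without GFP Ctrl mouse 2, Drd5, Htr4, Chrm4 and Chrna4 passed the unadjusted limit in the miR-9 experiment, and without miR-9sp mouse 17, Htr2c, Adra2a, Chrm4 and Chrna7 did. The cause was not tested. Seed matches rose to 4 (miR-9) and 8 (miR-34) with the heptamer, which is contained in the 8mer by construction. Reversal of direction was checked for the genes with an unadjusted p under 0.05 in a sponge comparison or in the difference between the sponges, and none of them reversed. The other genes named were not put through this check. With 3 mice against 3, an exact permutation test cannot give a p under 0.1.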
